A study of Oryza sativa with 4 samples.

Results

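A stretch of rice chromosome 12 between 5 and 17 Mb of the IRGSP-1.0 genome was examined in leaves of *OsNAC14OX* plants and of non-transgenic (NT) plants. Its members were the transcripts that start in these positions, after 12 transcripts of 6 genes were left out by ID and 17 transcripts by a description with NB-ARC or disease resistance. This left 465 transcripts of 382 genes, of 31414 genes in all. Of 3 genes with a transcript left out by description, another transcript was kept. The segment was picked because genes on it differed between the same 4 libraries, so all differences between the groups are given as a description of the segment, with no test of it. A gene was called on in only 1 group when its FPKM, summed over its transcripts, was under 0.5 in both libraries of that group's counterpart and at least 1 in both libraries of the group. FPKM are fragments scaled to the length of the transcript and to the mapped reads of the library.

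Leaf RNA was sequenced in 2 NT libraries and 2 *OsNAC14OX* libraries. NT plants were of the cultivar Nakdong and carried no transgene, while *OsNAC14OX* plants carried *OsNAC14*, a NAC transcription factor gene, behind the constitutive *PGD1* promoter in the Nakdong background, and both were grown without drought. The labels give an age of 20 days beside RNA from plants of 2 weeks, and enter Nipponbre as the cultivar where the study's text has Nakdong. The study names a single homozygous line for the RNA, so a difference may belong to that line, and its text calls the libraries duplicate biological samples without saying how many plants each held. In the column names, the NT libraries carry a year-like number that is missing from those of *OsNAC14OX*; if it marks a batch, batch and group cannot be told apart. The FPKM of a library summed to between 735318 and 765959, and the number of reads behind them is unknown. *OsNAC14* itself was at 3.16 and 3.70 FPKM in NT against at 16.4 and 16.3 in *OsNAC14OX*. Of 50 genes described as chlorophyll a/b binding or photosystem proteins, which mark leaf, 49 reached an FPKM of 1 in all 4 libraries. So did 36 of 50 genes with pollen or anther in the description and 33 of 41 with root. Both lists were picked by these words and were not checked to be specific to an organ. The pollen and anther list summed to 3606 and 3885 FPKM in NT and 3366 and 4169 in *OsNAC14OX*. The root list was lower in both *OsNAC14OX* libraries, at 618 and 747 against 802 and 846, and its part in the differences was not tested.

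In rice, as in other plants, the genes around a centromere are sparse and lie among transposons, and chromosomes recombine little there, so neighbouring genes are usually inherited together. The segment spans the centromere of chromosome 12. Its windows of 1 Mb held 20 to 48 genes (median 31.5), against 31 to 153 (median 71) in the windows of the rest of the chromosome. Many rice genes near centromeres are known only as predicted models. Of the 382 members, 169 (44.2%) had a transcript described as hypothetical or unknown. Such descriptions are common elsewhere as well. Among the transcripts tested they made up 149 of 386 on the segment and 8680 of 30251 over the genome.

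Of the 382 genes, 280 reached an FPKM of 1 in all 4 libraries and 36 stayed under 0.5 in all of them. A further 56 lay between these limits. The remaining 10 were on in only 1 group, 8 of them in NT and 2 in *OsNAC14OX*. Among the 322 genes that were on in both libraries of at least 1 group, these were 3.11%, against 0.47% of such genes over the 12 chromosomes. By direction, the shares were 2.48% for NT and 0.621% for *OsNAC14OX*, against 0.255% and 0.216% over all genes. In bulk leaf RNA, fewer cells of a type that uses a gene and less of its RNA per cell cannot be told apart. Between replicates, 1 NT library was under 0.5 and the other at least 1 for 1 gene, and the same held for 4 genes between the *OsNAC14OX* libraries. The count for *OsNAC14OX* depended on single libraries, with 6 genes without NT replicate 2 and 7 without *OsNAC14OX* replicate 2, and stricter limits of 0.2 and 2 FPKM left 2 genes on only in NT and 1 only in *OsNAC14OX*. The segment held 1.29% and 1.32% of the summed FPKM in NT and 1.35% and 1.37% in *OsNAC14OX*. This order turned, to 0.932% and 0.951% against 0.888% and 0.914%, without 5 members that are described as ribulose bisphosphate carboxylase or share positions with such a gene.

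**Figure D1:**
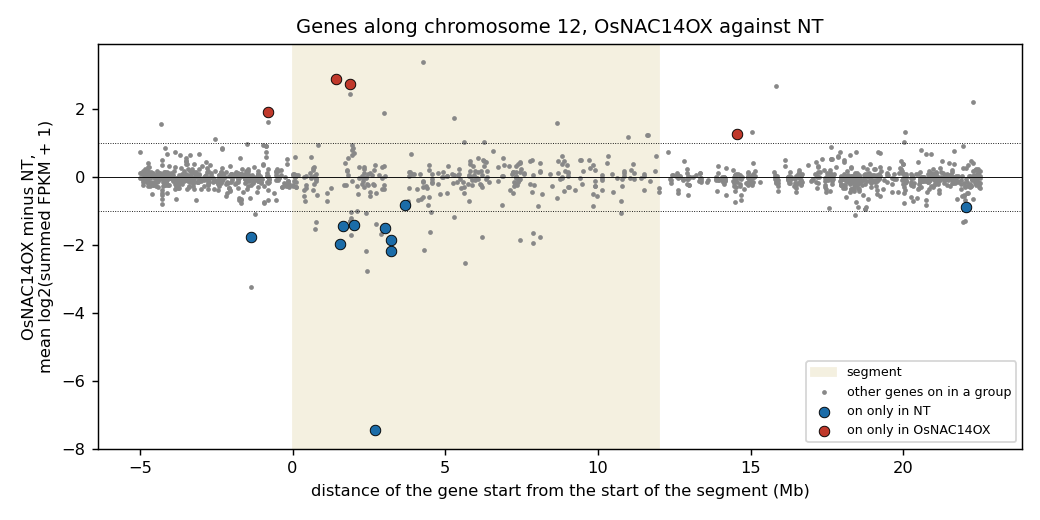
Difference between *OsNAC14OX* and NT for each chromosome 12 gene that was on in at least 1 group, as the mean log2(summed FPKM + 1) of 2 libraries minus that of the other 2, against the distance of the gene start from the start of the segment in Mb. Large points are genes on in only 1 group, the shaded area is the segment and the dotted lines mark a fold of 2; the 10 large points of the segment all lie in its first 4 Mb, and the lowest is at -7.47.

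The 10 genes were not spread over the segment. They all lay from 6425710 to 8689117, a stretch of 2.26 Mb chosen here after their positions had been seen. There they made up 13.9% of 72 genes that were on, while the 43 such genes before it and the 207 after it included 0. The borders are the first and last of the 10 genes, so the 0 on either side follows from that choice. The confinement also belongs to the main rule. When 1 transcript sufficed, or with off under 1 and on from 2, some added genes lay after the stretch, such as Os12g0443700 and Os12g0428200. Os12g0219700, Os12g0221400 and Os12g0222800 were consecutive among the members that were on, with 0 such genes between them over gaps of 137 and 83.2 kb. Os12g0247900 and Os12g0254700 were consecutive as well, 443 kb apart. Os12g0226400, on only in *OsNAC14OX*, lay between genes on only in NT, with 9 and 10 other genes that were on to either side, and Os12g0219700, the first of the 10, was followed by 1 on only in NT. Both directions thus occurred within the same stretch.

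Of the genes on only in NT, Os12g0239300 was by far the most abundant. This conserved hypothetical protein (Os12t0239300-01, from 7709120 to 7710951, transcript length 1832 bases) had 173 and 182 FPKM in NT against 2.76e-07 and 0.0182 in *OsNAC14OX*. By mean FPKM it ranked 7 of the 382 members in NT and 382 in *OsNAC14OX*. Its log2 fold change, on the normalized FPKM + 1, was -7.41 (standard error 0.09), which ranked 2 in size among all 30251 transcripts compared. Its role is not known from the deposited description.

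The other 7 genes on only in NT had low levels there, none over 5 FPKM. Os12g0247700 (from 8239432 to 8241147), described as similar to a jasmonate-induced protein, a class first named in barley leaves for its accumulation after jasmonate, had 4.97 and 4.61 FPKM in NT against 0.297 and 0.265 in *OsNAC14OX*. Os12g0247900, a hypothetical protein at 3.36 and 3.14 against 0.155 and 0.168 FPKM, shares 1405 bases of position with it. The labels name a strand-specific library where the study's text names the TruSeq RNA kit, so reads of this pair may not be separable and they may be 1 locus. Under the rule that picked these genes, their groups cannot overlap. Over the members that were on, the groups did not overlap in 220 of 322, against 43.3% over all such genes.

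Os12g0222800 (from 6647365 to 6650382) encodes a protein with the N-terminal domain of leucine-rich repeat proteins, many of which sit in the membrane as receptors. It had 1.93 and 1.72 FPKM in NT against 0.0777 and 0.0106 in *OsNAC14OX*. Os12g0228800 (from 7014180 to 7014828) is similar to calmodulin-like proteins, which bind calcium in signaling, and had 1.55 and 2.72 FPKM in NT against 0.177 and 0.128 in *OsNAC14OX*. The NT replicates of this gene differed more than those of the other NT genes, but both lay above 1. Os12g0254700 (from 8684238 to 8689117) is similar to an H-ATPase, a proton pump, and had 1.16 and 1.09 FPKM in NT against 0.211 and 0.199 in *OsNAC14OX*.

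Os12g0221400 (from 6563411 to 6564155), described only by a cDNA clone, had 3.44 and 3.78 FPKM in NT against 0.245 and 0.106 in *OsNAC14OX*. Os12g0245100 (from 8031420 to 8036687), a conserved hypothetical protein, was at 2.09 and 1.99 FPKM in NT against 0.0985 and 0.0537 in *OsNAC14OX*. In both, the NT replicates were close to each other, and the rule itself places them above the *OsNAC14OX* replicates.

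The genes on only in *OsNAC14OX* lay above these 7 and far under Os12g0239300. Os12g0226400 (from 6889996 to 6896735) is similar to 2-alkenal reductase, an enzyme that in Arabidopsis reduces reactive aldehydes from oxidized lipids. It had 7.52 and 7.75 FPKM in *OsNAC14OX* and 0.301 and 0.303 in NT, a log2 fold change of 2.75 with a standard error of 0.11. Os12g0219700 (from 6425710 to 6426420), a hypothetical protein, had 6.83 and 6.67 FPKM against 0.0254 and 0.0989 (log2 fold change 2.89, standard error 0.11). All 10 genes of both directions had a single transcript in the table, as did 84.8% of the members, and 4 of them were described as hypothetical, close to the share among all members.

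**Figure D2:**
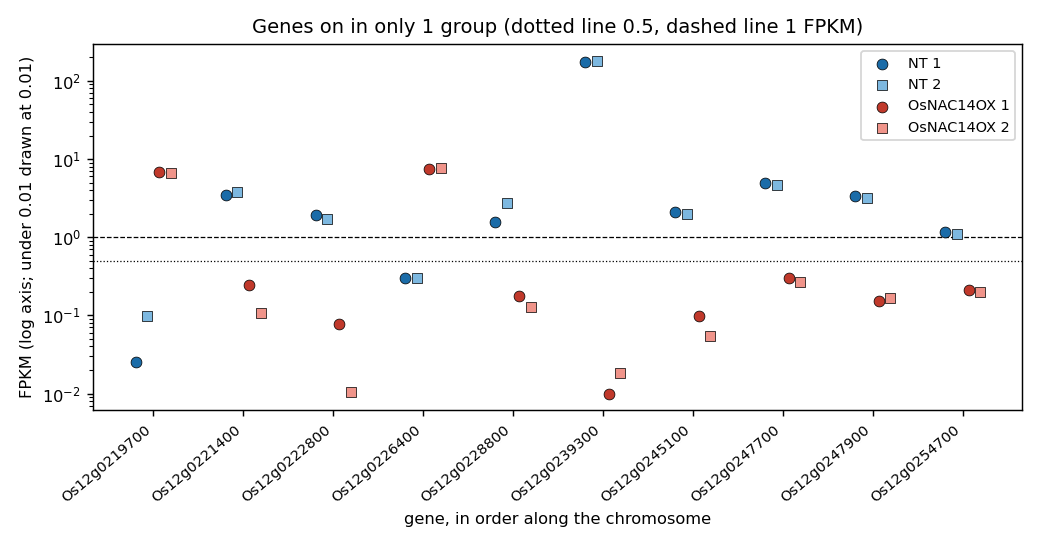
FPKM of the 10 genes on in only 1 group in each of the 4 libraries, on a log axis with values under 0.01 drawn at 0.01; the dotted and dashed lines are at 0.5 and 1. Replicates of a group lie close together beside the gap between the groups, which the rule requires. Os12g0239300 stands far above the others at 173 and 182 in NT.

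At the threshold, the members just inside were Os12g0254700, Os12g0228800 and Os12g0222800, whose lower value in the group that was on was 1.09, 1.55 and 1.72 FPKM. Just outside by this value were Os12g0434400 (1.06 and 0.916 FPKM in *OsNAC14OX*, 0.0748 and 0.134 in NT), Os12g0217400 (0.758 and 0.741 against 0.246 and 0.284) and Os12g0272800 (0.707 and 0.671 in NT, 0.159 and 0.215 in *OsNAC14OX*). Others were on in both libraries of 1 group but did not stay under 0.5 in the other. One was Os12g0226500, a hypothetical protein that overlaps the 2-alkenal reductase gene by 1068 bases, with 8.14 and 6.78 FPKM in *OsNAC14OX* against 0.440 and 0.651 in NT, a log2 fold change of 2.47 with a standard error of 0.15. It lies wholly within that gene, so reads of the pair may not be separable, and both are among the transcripts called higher below. Another was Os12g0428200, an autophagy-related protein, with 2.72 and 3.44 in *OsNAC14OX* and 0.177 and 0.574 in NT. Of the non-coding transcripts, Os12g0226766 had 2.84 and 2.68 in NT and 0.508 and 0.344 in *OsNAC14OX*.

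The reductase genes of the segment did not move together. The list made from the deposited descriptions held 9 genes, of which 8 were tested with limma, 2 transcripts being called higher and 1 lower. It matched transcripts by description, so Os12t0263800-01, described by a cDNA clone and also called lower, is not in this count. The median log2 fold change of those tested was -0.83, against -0.05 over the 105 transcripts with such descriptions in the genome. Next to the 2-alkenal reductase gene lie genes of allyl alcohol dehydrogenase, which belong to the same family of enzymes. Os12g0225900 had 16.7 and 18.5 FPKM in NT against 5.58 and 7.55 in *OsNAC14OX* (log2 fold change -1.27, standard error 0.17). Os12g0226900 had 5.14 and 6.10 against 1.60 and 2.16, and Os12g0226700 had 2.05 and 2.36 against 0.596 and 0.508. In these 3 genes the NT libraries were the high ones, but none was called. Their groups did not overlap, as in 220 of the 322 members that were on, against 43.3% over all such genes. Each of the 3 overlaps another gene model, by 845, 2066 and 808 bases, in which NT was likewise the higher group. The groups overlapped in the next gene, Os12g0227400, at 1.87 and 2.76 FPKM in NT against 1.72 and 2.36 in *OsNAC14OX*.

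Beyond the stretch with the 10 genes, a pair of neighbouring genes similar to isoflavone reductase-like protein 1 differed in opposite directions. Such proteins are NADPH-dependent reductases, related to enzymes of lignan and isoflavonoid synthesis. Os12g0263600 (from 9286790 to 9291494) had 8.08 and 12.2 FPKM in NT against 113.6 and 111 in *OsNAC14OX* (log2 fold change 3.39, standard error 0.20), and moved from rank 136 to rank 10 among the members. Os12g0263800 (from 9299518 to 9318122) had a summed FPKM of 69.5 and 72.8 in NT and of 13.3 and 17.2 in *OsNAC14OX*. Its transcript Os12t0263800-03 had 46.4 and 48.5 against 1.16 and 1.38 FPKM (log2 fold change -4.37, standard error 0.11), and Os12t0263800-01 had 13.2 and 14.1 against 1.21 and 1.12 (log2 fold change -2.72, standard error 0.11). Os12t0263800-02 had 9.98 and 10.3 against 10.9 and 14.7, with the groups close. If the gene copies are alike in sequence, the authors' counting could assign reads of one to the other. Of related enzymes nearby, the pinoresinol-lariciresinol reductase gene Os12g0263200 had 22.6 and 19.9 against 13.9 and 13.4 FPKM, and Os12g0265100, similar to the same enzyme, had a summed FPKM of 51.8 and 50.1 against 37.8 and 42.8. The groups did not overlap in either, as in most members that were on, with NT higher and neither called. Os12g0260500, an oxidoreductase of the short chain family, was at 28.6 and 34.6 in NT and at 12.03 and 30.7 in *OsNAC14OX*, where the groups overlapped.

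**Figure D3:**
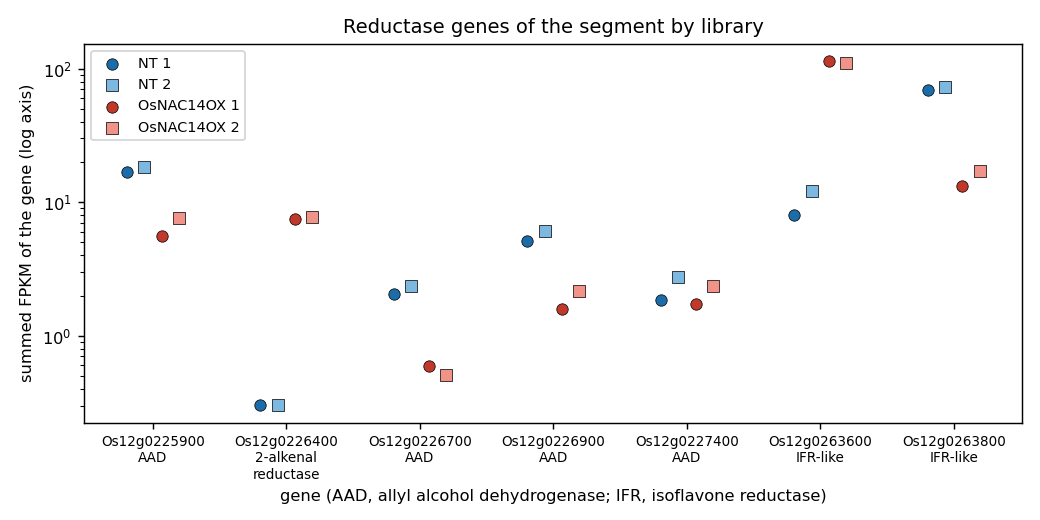
Summed FPKM of 7 reductase genes of the segment in each library, on a log axis. Os12g0226400 and Os12g0263600 are high in *OsNAC14OX*, Os12g0225900, Os12g0226700, Os12g0226900 and Os12g0263800 are high in NT, and Os12g0227400 overlaps between the groups.

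With limma, 386 transcripts of 324 genes passed the filter, which asked for 1 FPKM or more in 2 or more libraries. Of these, 5 were called higher and 15 lower in *OsNAC14OX*, at a Benjamini-Hochberg adjusted p under 0.05 over all transcripts and a fold of at least 2. This was 5.18% of the transcripts, against 0.555% over all transcripts tested. In one direction it was 1.30% higher and 3.89% lower, against 0.251% and 0.304%. Since the segment was chosen on this contrast, nothing is read from these shares. The median log2 fold change of the segment was 0.00, as over all transcripts, so the calls did not come with a shift of the whole segment. The count depended on which libraries were in the fit. Without *OsNAC14OX* replicate 1 it was 2 higher and 4 lower, and without *OsNAC14OX* replicate 2 it was 7 and 23. Without NT replicate 1 or NT replicate 2, which leaves a single NT library, limma called none in either direction.

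Of the 10 genes on in only 1 group, 7 were called and Os12g0222800, Os12g0228800 and Os12g0254700 were not, with log2 fold changes of -1.41, -1.40 and -0.79. The rule that picked the 10 genes used the same libraries and already set their groups apart, so nothing is read from the 7 calls. Of the called transcripts outside the 10 genes and the isoflavone reductase-like genes, Os12g0236100 had the largest change. This hypothetical conserved gene had 90.7 and 90.2 FPKM in NT against 13.1 and 11.7 in *OsNAC14OX* (log2 fold change -2.71, standard error 0.09). Os12g0235300, whose protein is also of unknown function, stood at 9.73 and 10.7 against 1.32 and 1.63. Os12g0267064, similar to NADP-dependent malate dehydrogenase, which turns oxaloacetate into malate, had 9.93 and 10.3 against 2.37 and 2.93. Os12g0209700, a hypothetical conserved gene that starts at 5736998, before the stretch of on and off genes, was at 19.1 and 18.4 against 5.50 and 6.11. In all of these NT was higher, with replicates closer to each other than to the other group.

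Another group of called transcripts lay between 12 and 13 Mb, where no gene was on in only 1 group. Os12g0417000, described as a transposase of the En/Spm class, the enzyme that excises such transposons, had 23.1 and 24.7 FPKM in NT against 6.42 and 7.27 in *OsNAC14OX*. It was the single tested member of the 2 transposon-related genes of the segment. Its neighbour Os12g0416900, a conserved hypothetical protein, had 12.36 and 12.03 against 2.33 and 2.51. Os12g0409800, likewise a conserved hypothetical protein, had 4.61 and 5.10 against 0.715 and 0.497. The groups were apart in each, with NT on the higher side.

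Some calls concern 1 transcript of a gene and not its total. Os12t0257500-02, of a conserved hypothetical protein gene, had 1.30 and 0.989 FPKM in NT against 11.8 and 8.76 in *OsNAC14OX* and was called higher. Os12t0257500-01 of the same gene had 11.6 and 11.9 in NT and 1.41 and 7.02 in *OsNAC14OX*, and the summed FPKM was 12.9 and 12.9 against 13.2 and 15.8. The estimated balance of the transcripts thus differed while the level of the gene was nearly the same. The *OsNAC14OX* replicates of Os12t0257500-01 were far apart, and the split of reads between the transcripts was not checked. In 5 further genes, 1 transcript alone met the rule of on and off, each time on only in NT. With these, 15 genes of the segment had at least 1 such transcript, against 170 genes in the whole series. Counted as transcripts, 15 of the segment met the rule, and 177 of the 29782 that were on in the whole series (0.594%). The share among the transcripts of the segment that were on is not given.

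Os12t0405700-02, similar to a wound-induced basic protein, had 26.7 and 79.3 FPKM in NT against 0.0106 and 0.000741 in *OsNAC14OX*, while its gene was at 199 and 205 against 179 and 181. Its NT replicates were far apart. Os12t0405700-01 had 172 and 125 in NT and 179 and 181 in *OsNAC14OX*, so that this transcript was the higher one in *OsNAC14OX* but was not called. Os12t0416300-02, a hypothetical gene, had 3.71 and 3.91 in NT and 0.000228 and 0.00363 in *OsNAC14OX*, and the sum of its 3 transcripts was 11.6 and 11.4 against 7.62 and 8.55. This was the one of the 5 that was called. Os12t0443700-01, similar to a Glu-prolyl-tRNA synthetase, which loads amino acids on their tRNA, was at 2.23 and 1.49 in NT within a gene at 101 and 94.7 FPKM. Os12t0223300-02, similar to cytochrome b5, an electron carrier, was at 2.15 and 1.70 within 61.3 and 59.9. Os12t0284000-04, described as a hypothetical conserved gene, was at 1.11 and 2.34 within 47.6 and 53.0. For all 5 genes the other transcripts carried most of the level in every library. The transcripts of each gene share positions, so their values depend on how reads were split between them. That split was not checked, and a loss of the single transcript is not read from it.

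**Figure D4:**
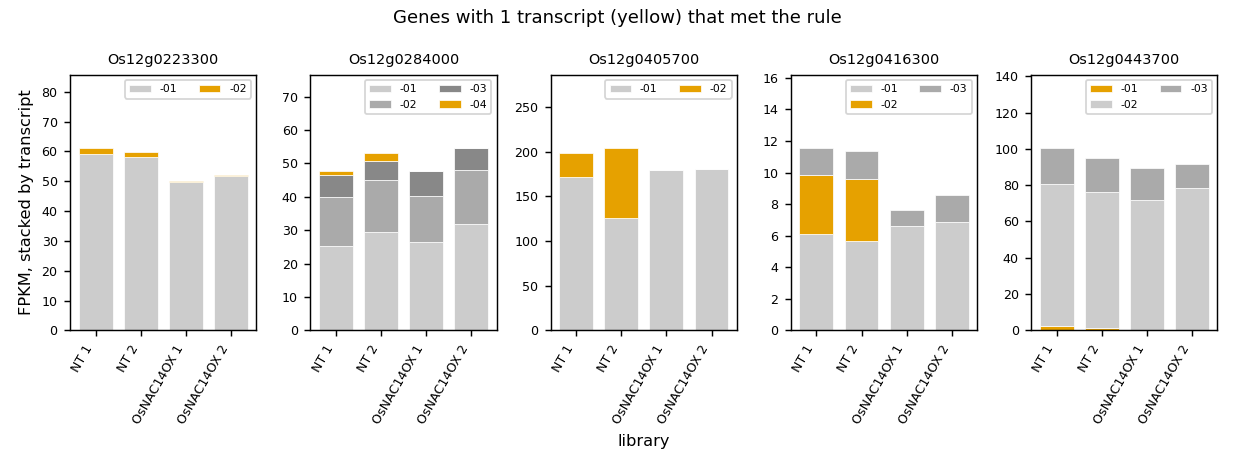
FPKM of every transcript of the 5 genes in which 1 transcript alone met the rule, stacked for each of the 4 libraries, with that transcript in yellow and the others in grey. The yellow part is visible in NT and nearly absent in *OsNAC14OX*, while the whole bar of each gene keeps most of its height; Os12g0416300 differs most, at 11.6 and 11.4 against 7.62 and 8.55.

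Differences of a smaller size were counted as well, and nothing is read from them since they come from the contrast that chose the segment. Of its 322 genes that were on, 42 (13.04%) had groups that did not overlap and a fold of at least 2 on summed FPKM + 1, against 1.85% over all genes. These were 10 higher and 32 lower in *OsNAC14OX*. On the rest of the chromosome 13 of 1044 genes did so, 7 higher and 6 lower, and 4 were on in only 1 group, a count that was 9 without NT replicate 1 and 7 without *OsNAC14OX* replicate 2. The median absolute difference between the groups was 0.25 on the log2 scale on the segment and 0.13 on the rest of the chromosome. Replicate differences were alike on both, with medians of 0.10 in NT and 0.16 in *OsNAC14OX*.

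Along the chromosome, the median difference between the groups exceeded the medians of both replicate pairs in 10 of the 12 windows of the segment, from 5 to 15 Mb, and in 1 of the other 16, which is the adjoining window from 4 to 5 Mb. The largest was 0.81, from 6 to 7 Mb, where the replicates differed by 0.11 and 0.23. From 8 to 9 Mb it was 0.49 and from 13 to 14 Mb 0.37. In the last windows of the segment, from 15 to 17 Mb, it was 0.17 and 0.16, under the *OsNAC14OX* replicates. A difference between means of 2 libraries has less scatter than one between single libraries, so these medians are not on the same footing. Of the 4 genes of the other windows that were on in only 1 group, 2 lay between 3 and 5 Mb, close to the segment.

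**Figure D5:**
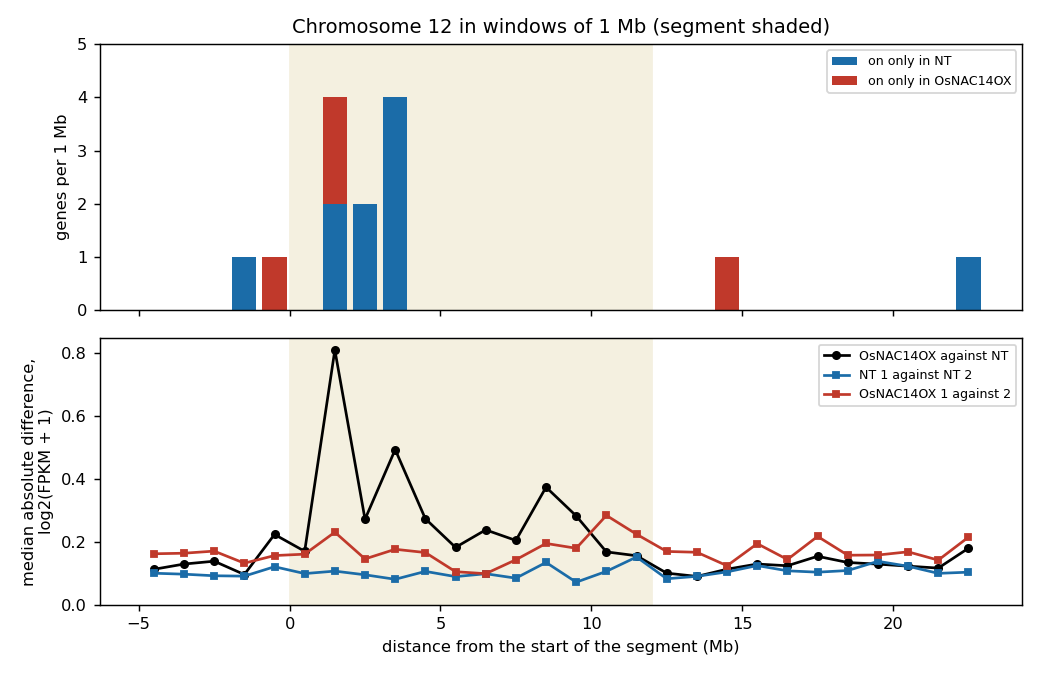
Windows of 1 Mb along chromosome 12, against the distance from the start of the segment, which is shaded. The upper bars count genes on in only 1 group and the lower lines give the median absolute difference in log2(summed FPKM + 1) between the groups and between the replicates of each; the groups reach 0.81 in the second window of the segment and the replicates stay at or under 0.28 throughout.

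The stretches described on chromosome 11 from 21 to 24.5 Mb and on chromosome 7 from 17 to 22 Mb were chosen in the same way and are given side by side. On chromosome 11, 10 of 144 genes that were on (6.94%) were on in only 1 group, 5 in each direction. On chromosome 7, 7 of 285 (2.46%) were, 4 in NT and 3 in *OsNAC14OX*. The segment of chromosome 12 had 8 against 2, so most of its genes that were on in only 1 group were on in NT. This lean was smaller without NT replicate 2 or without *OsNAC14OX* replicate 2. No difference between these stretches was tested.

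The remaining gene groups of the segment held few or no calls. No share over all transcripts is given for an unadjusted limma p under 0.05. Nothing is therefore read from such counts, for these groups or for the segment. None of 11 tested genes with kinase in the description was called by limma. They include a diacylglycerol kinase, an adenylate kinase and a dikinase beside protein kinases. None of 13 tested genes with a zinc finger, Myb or other transcription factor term in the description was called either. These include RING, PHD and CCCH zinc finger proteins and were not checked to be transcription factors. The kinase and transcription factor lists had 3 and 1 transcripts with an unadjusted p under 0.05. Their median log2 fold changes were -0.01 and 0.01, and those of their 15 and 15 transcripts ran from -0.54 to 0.43 and from -0.20 to 0.38. Among the kinase genes, Os12t0224000-01, similar to a diacylglycerol kinase, which phosphorylates a lipid signal, was at 20.9 FPKM in 1 *OsNAC14OX* library and at 6.92 in the other, against 8.67 and 9.17 in NT. The difference there was one between replicates.

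Of 5 chaperone genes, which help proteins fold, none was called by limma, and 4 of 9 transcripts had an unadjusted p under 0.05. Os12t0244100-04, similar to a stromal 70 kDa heat shock-related protein of the chloroplast, had 18.7 and 17.9 FPKM in NT against 7.09 and 7.81 in *OsNAC14OX* (log2 fold change -1.16, standard error 0.11). The transcripts of the DnaJ gene Os12g0283900 differed in opposite directions, at 1.76 and 1.97 against 0.533 and 0.585 for Os12t0283900-01 and at 1.38 and 1.44 against 3.05 and 2.64 for Os12t0283900-02. Of 2 jasmonate-induced genes, the other one, Os12t0198700-01, was at 2.02 and 2.42 against 1.54 and 1.68. Genes of pentatricopeptide proteins, F-box and ubiquitin proteins, transporters, cytochrome P450 and ribosomal proteins had 3, 2, 2, 1 and 2 tested members, and their log2 fold changes ran from -0.44 to 0.17. Limma called 0 of them, and 1, a transporter, had an unadjusted p under 0.05. The list of photosystem and Rubisco-related genes had 2 tested genes with 5 transcripts, of which limma called 0 and 3 had an unadjusted p under 0.05, with log2 fold changes from -2.80 to 0.74.

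Of 18 genes with a non-coding transcript, 10 were tested and 0 called by limma (2 at an unadjusted p under 0.05), with a median log2 fold change of -0.29. The hypothetical genes, 136 of them tested, had 3 transcripts higher and 9 lower by limma, with a median of 0.02. They held 12 of the 20 calls and 38.6% of the transcripts tested on the segment. *HSR201* (Os12g0458100), a transferase that the study names among its stress response genes, lies at 15998272 to 16005479. It was higher in *OsNAC14OX*, with 2.67 and 2.54 FPKM against 0.641 and 0.568 (log2 fold change 1.20, standard error 0.12). It was not called and missed the rule of on and off, since NT stayed above 0.5.

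By mean FPKM over all 4 libraries, the most abundant members did not include Os12g0239300 or Os12g0263600, whose high values were confined to 1 group. Os12g0420400, which encodes subunit XI of photosystem I, had 866 and 1009 FPKM in NT against 1024 and 1086 in *OsNAC14OX*. Os12g0230100, similar to the ATP-binding subunit of the chloroplast Clp protease, which unfolds proteins for breakdown, had 339 and 306 against 257 and 281. Os12g0274750 and Os12g0291733, hypothetical genes at 1587 and 1701 against 2036 and 2093 FPKM and at 1047 and 1091 against 1364 and 1316, overlap Rubisco small subunit genes by 618 and 799 bases, and their reads may not be separable from those. In Os12g0277500, the alpha subunit of the chaperonin that folds Rubisco, 1 NT library stood apart at 252 FPKM against 83.0 in the other and 68.2 and 58.0 in *OsNAC14OX*. The overlapping hypothetical gene Os12g0277650 was at 5.58 in that library and at 111, 94.2 and 85.9 in the others. A pair of AAA-type ATPase genes, Os12g0467700 and Os12g0468000, had the same 3.98 and 4.21 FPKM in NT against nearly the same in *OsNAC14OX*, at 17.9 in both and at 6.72 and 6.71. Whether reads were shared between them was not checked, so their values are uncertain.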

How the data were processed

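The authors trimmed single-end reads with Trimmomatic, removed reads under Q20, aligned the rest by TopHat against IRGSP-1.0 and its RAP-DB gene models, and deposited FPKM per transcript. No source used here names the tool that made them. The deposited log2 values lie near log2(FPKM + 1) and have equal totals, as after quantile normalization. A further 4 columns of libraries outside the series were not used. The authors' columns of fold changes and p-values and their tables of selected transcripts and enriched terms were not used. Transcript starts count from 0 in the table and 1 was added. FPKM were summed per gene with Python 3.11.15 and pandas 2.3.3. The normalized values of 30251 transcripts were compared with limma 3.58.1 in R 4.3.3 (two-sided, with a mean-variance trend). The method was tested on simulated data.

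The segment, its members and the 14 gene lists were chosen with earlier results of these data and the study's table of selected genes known. Named are all genes on in only 1 group, genes with 1 such transcript, those nearest to the thresholds, the called transcripts, up to 4 members of each list with the largest change, the most abundant genes and those the study names. Os12g0265100, Os12g0263200, Os12g0277650, Os12g0227400, Os12g0260500 and the AAA-type ATPase pair were named after their values had been seen. The alternatives were other thresholds, segment limits and gene counting, no normalization, other pseudocounts and filters, no trend, the replicate number as a block and each library left out. The depth of the libraries is unknown, so no counting interval is given.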

Additional observations from a re-analysis of the deposited data

How the results depend on the processing

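The 8 genes on only in NT and the 2 on only in *OsNAC14OX* stayed at these counts with normalized values and with a segment from 6 to 16 Mb. With no gene left out there were 9 and 2, and with a segment from 4 to 18 Mb 8 and 3. When 1 transcript sufficed there were 13 and 2, and 8 in place of 4 on the rest of chromosome 12. Off under 0.2 and on from 2 gave 2 and 1 genes, with 1 on the rest, and off under 0.1 and on from 1 gave 3 and 1, with 1 on the rest. Off under 1 and on from 2 gave 11 and 5, with 3 on the rest. With a library left out, 8 to 10 genes were on only in NT, 2 to 7 only in *OsNAC14OX* and 5 to 9 in 1 group on the rest of the chromosome. Leaving out a library drops a condition of the rule, so it can add genes (1 to 5 on the segment) and cannot lose any.

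In place of 5 transcripts called higher and 15 called lower, 2 and 10 were called with no filter on FPKM and 4 and 9 at an FPKM of at least 5. With a library left out, 0 to 7 were called higher and 0 to 23 lower. The replicate number as a block left 0 and 0 called by limma, where 52 passed an unadjusted threshold of 0.05 and a fold of 2. The share over all transcripts is not given for that count, and nothing is read from it. The deviations of same-numbered libraries had a correlation of 0.0037 over the transcripts, and the block was not used in the main fit. A batch that moved only some transcripts could leave such a value, and it was not tested. The remaining settings gave 5 or 6 higher and 13 to 16 lower. Over 60 named transcripts and all settings, the log2 fold change changed sign 5 times, always of a transcript that was not called. Over the fits with a library left out, it ran from -0.29 (without *OsNAC14OX* replicate 1) to 1.15 for Os12t0224000-01 and, with the sign changed without NT replicate 2, from -0.10 to 0.23 for Os12t0256900-01 and from -0.056 to 0.52 for Os12t0278800-03. For Os12t0288400-01 it ran from -0.078 to 0.055, with 0.03 without NT replicate 2 and the highest value without *OsNAC14OX* replicate 1. The 42 genes apart by 2-fold were 56 with a pseudocount of 0.1 and 20 at a fold of at least 3, alternatives chosen after the data had been seen. Also chosen then, leaving out the members at Rubisco genes moved the mean share of FPKM on the segment in *OsNAC14OX* minus that in NT from 0.062 to -0.040 percentage points.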
